A study of Mus musculus with 9 samples.

Results

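Microglia, the resident macrophages of the brain, were followed through 9 marker genes in bulk RNA from mouse prefrontal cortex. The genes were chosen by name as widely used markers of these cells, namely Cx3cr1, P2ry12, Csf1r, Trem2, C1qa, C1qb, C1qc, Tmem119 and Aif1, and 9 of the 9 were found among the 14444 genes measured. The rule names the genes and uses no measured value. Total RNA was sequenced after ribosomal RNA depletion in 9 libraries from animals 5 to 8 postnatal weeks old, 3 libraries in each of 3 groups. One group was wild type and received saline, and the other two carried a Shank3 mutation and received either saline or UNC0642, injected into the peritoneum at 1 mg/kg daily over 3 days. Shank3 encodes a scaffold protein of excitatory synapses, and UNC0642 inhibits EHMT1 and EHMT2, enzymes that methylate lysine 9 of histone H3. The labels name the mutant genotype without its allele. Whether each library is a different animal is also not stated, and the p-values below therefore refer to variation among libraries, part of which may be technical. In bulk tissue, fewer microglia and less RNA per microglial cell cannot be told apart.

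Microglia survey the tissue with motile processes, respond to injury and remove cell debris and synapses. They depend for survival on signals through the receptor encoded by Csf1r, whose ligands CSF1 and IL-34 are made by other brain cells. Cx3cr1 encodes the receptor for the neuronal chemokine fractalkine, P2ry12 a purine receptor that senses nucleotides released by damaged cells, and Trem2 a lipid-sensing receptor that signals through the adaptor TYROBP. C1qa, C1qb and C1qc encode the 3 chains of C1q, the starting molecule of the classical complement cascade, which tags synapses and debris for removal. Tmem119 encodes a membrane protein used to tell microglia from other macrophages, and Aif1 encodes IBA1, the calcium-binding protein stained in most histological work on these cells. Cx3cr1, Csf1r, Aif1 and the C1q genes are also used by macrophages at the borders of the brain.

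The stretches before the starts of 4 of these genes are shown because the pairs differed in how closely they moved over the 9 libraries: Cx3cr1 and P2ry12 had a Pearson's r of 0.96, while C1qb and C1qc, which lie next to each other with starts 6714 bases apart, had 0.36. As deviations from group means the 2 pairs lay nearer, at 0.98 and 0.63. Each stretch is the 250 bases before the annotated start in RefSeq on build GRCm38.p6, written 5′ to 3′ on the strand of the gene, with each AGGAAG, or CTTCCT where the match is on the other strand, in capitals.
Cx3cr1, chr9:120068297-120068546, minus strand: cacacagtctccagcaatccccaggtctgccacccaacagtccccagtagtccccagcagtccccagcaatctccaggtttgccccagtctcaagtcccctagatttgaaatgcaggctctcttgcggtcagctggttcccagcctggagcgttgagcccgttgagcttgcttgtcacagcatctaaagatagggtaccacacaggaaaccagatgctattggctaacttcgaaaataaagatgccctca
P2ry12, chr3:59262986-59263235, minus strand: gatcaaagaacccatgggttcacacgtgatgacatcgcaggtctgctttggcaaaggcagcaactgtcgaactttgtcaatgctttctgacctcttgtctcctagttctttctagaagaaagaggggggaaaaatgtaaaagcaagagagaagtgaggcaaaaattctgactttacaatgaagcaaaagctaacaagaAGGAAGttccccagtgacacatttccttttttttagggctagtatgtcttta
C1qb, chr4:136886201-136886450, minus strand: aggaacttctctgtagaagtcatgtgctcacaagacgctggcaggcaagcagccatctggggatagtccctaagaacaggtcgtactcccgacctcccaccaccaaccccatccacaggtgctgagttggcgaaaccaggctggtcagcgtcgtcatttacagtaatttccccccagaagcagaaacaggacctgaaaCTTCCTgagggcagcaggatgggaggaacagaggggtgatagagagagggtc
C1qc, chr4:136892915-136893164, minus strand: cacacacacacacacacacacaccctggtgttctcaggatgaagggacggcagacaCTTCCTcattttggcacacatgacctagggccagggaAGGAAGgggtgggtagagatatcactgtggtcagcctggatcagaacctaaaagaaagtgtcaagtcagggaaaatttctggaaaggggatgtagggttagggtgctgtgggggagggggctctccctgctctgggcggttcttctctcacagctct
AGGAAG holds the GGAA core bound by the ETS family of transcription factors, among them PU.1, the factor of the macrophage lineage encoded by Spi1. Of the 9 members 6 had an entry in the promoter table (P2ry12, C1qb, C1qc, Cx3cr1, Aif1 and Trem2), and AGGAAG stood on either strand in 4 of these 6, C1qb, C1qc, P2ry12 and Trem2, against 29.5% of all 32851 promoters of this length. In P2ry12 and in C1qb the match began 52 bases before the start, in P2ry12 on the strand of the gene and in C1qb on the opposite one. Altogether 7 motifs were searched on both strands, and those other than TATAAA overlap one another. GAGGAA was in 4 of the 6 members (23.3% of all promoters), GGAAGT in 3 (19.7%), AGGAAGT in 3 (7.69%), GAGGAAG in 2 (10.6%) and GGAAGTG in 1 (8.55%). TATAAA was in 0 of the 6 (12.4% of all promoters). The Cx3cr1 window held none of the 7, though the GGAA core alone stood in it. These matches describe letters only, and no factor was measured at them.

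The deposited values had been adjusted before deposit. In each gene, wild type with UNC0642 replicates 2 and 3 had the same average log2 value as saline mutants with UNC0642 replicate 1, to within 2.5e-09. Group differences in these values therefore follow from the UNC0642 libraries and do not measure genotype or treatment directly. Whole reads could be recovered for all 14444 genes, at 12035098 to 16165483 reads per library, and member levels below are recovered reads scaled to a common library total (RPM) unless stated. In the recovered reads another division ran through the libraries, with wild type and UNC0642 replicate 3 on 1 side and the saline mutants and UNC0642 replicates 1 and 2 on the other. No label names this division, and it was taken from the reads themselves. Genotype and division can be told apart only through UNC0642 replicate 3. Shank3 itself lay at 295 to 357 RPM in wild type, 321 to 349 in saline mutants and 294 to 319 under UNC0642. The labels do not say which exons the allele affects, so these levels are no check of the genotype.

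All 9 members were read in every library, with a lowest count of 71 reads, for Aif1 in saline mutant replicate 1. The exact Poisson 95% interval of that count ran from 55.5 to 89.6 reads, for counting error only. Per kilobase of exon, C1qb stood highest at 47.6 ± 5.30 RPM per kilobase (SD, n = 9) and C1qa at 47.5 ± 5.96 (SD, n = 9). C1qb lay above C1qa in 6 of 9 libraries, so the order of these neighbours did not exceed their spread. C1qc followed at 24.0 ± 2.49 and Csf1r at 20.9 ± 3.94 (SD, n = 9 each), again with the higher gene above in 6 of 9 libraries. P2ry12 (16.2 ± 3.17), Cx3cr1 (13.3 ± 2.24), Tmem119 (11.4 ± 2.16), Aif1 (4.30 ± 0.740) and Trem2 (2.39 ± 0.418) came next (SD, n = 9 each), each above the gene after it in 9 of 9 libraries. The genes of the secreted complement chains thus led the order and the receptor gene Trem2 closed it. The end of the order rests on the length used for Trem2, whose exons cover 4946 bases. With the principal transcript of 1088 bases its level was 10.9, above Aif1 at 7.52, while the other 7 members kept their order and C1qc stood at 38.5.

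The purine and chemokine receptors and the growth factor receptor showed 1 pattern over the libraries. Cx3cr1 had 57.0, 60.6 and 77.5 RPM in wild type, 57.5, 61.3 and 50.1 in saline mutants, and 49.5, 51.8 and 74.7 under UNC0642. P2ry12 had 37.1, 42.3 and 55.2 in wild type, 37.4, 40.0 and 32.1 in saline mutants, and 37.2, 35.8 and 54.0 under UNC0642. In both genes wild-type replicate 3 was highest, UNC0642 replicate 3 second, and the 3 groups overlapped. Csf1r, the most read member, had 110.7, 126.7 and 169.3 in wild type, 105.9, 120.0 and 100.9 in saline mutants, and 103.1, 105.7 and 142.9 under UNC0642. The same pair of libraries led, and saline mutant replicate 3 was lowest for Csf1r and P2ry12. Trem2 did not share this order. It had 9.39, 9.20 and 11.6 RPM in wild type, 13.6, 9.26 and 12.2 in saline mutants, and 13.6, 13.6 and 14.1 under UNC0642. Trem2 was the single member whose libraries did not overlap between any 2 groups, with each UNC0642 library above each wild-type library, as in 9.84% of all genes. This 1 of 9 members is near the share of all genes. Its saline mutant libraries spanned both.

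The C1q chains were flatter, with coefficients of variation over the 9 libraries of 12.5% for C1qa, 11.1% for C1qb and 10.4% for C1qc against 16.8% to 19.6% for Cx3cr1, P2ry12, Csf1r and Tmem119. C1qa had 37.6, 43.1 and 57.3 RPM in wild type, 56.9, 51.2 and 49.0 in saline mutants, and 49.9, 48.1 and 51.9 under UNC0642. C1qb had 47.4, 45.2 and 64.2 in wild type, 48.1, 47.4 and 54.1 in saline mutants, and 53.0, 54.7 and 52.0 under UNC0642. The wild-type libraries of both genes held the highest and the lowest value of all 9, so all groups overlapped. C1qc had 37.9, 41.1 and 49.7 in wild type, 53.0, 50.6 and 46.6 in saline mutants, and 47.8, 46.9 and 43.5 under UNC0642. Here the lowest library was again wild-type replicate 1, and the highest was saline mutant replicate 1. UNC0642 replicate 3, high for the receptors, was unremarkable for the C1q genes, in place 3, 5 and 7 of the 9 libraries for C1qa, C1qb and C1qc.

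Tmem119, the membrane protein gene, followed the receptors. It had 24.2, 28.6 and 35.4 RPM in wild type, 25.2, 29.1 and 22.9 in saline mutants, and 22.4, 18.9 and 30.7 under UNC0642. Wild-type replicate 3 and UNC0642 replicate 3 led again, and UNC0642 replicate 2 was lowest. Aif1, at 6.40, 7.69 and 6.91 in wild type, 5.66, 5.71 and 7.04 in saline mutants, and 6.21, 4.95 and 8.65 under UNC0642, held both its lowest and its highest library within the UNC0642 group. Aif1 counts were the smallest of the members, so its relative counting error was the largest.

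**Figure D1:**
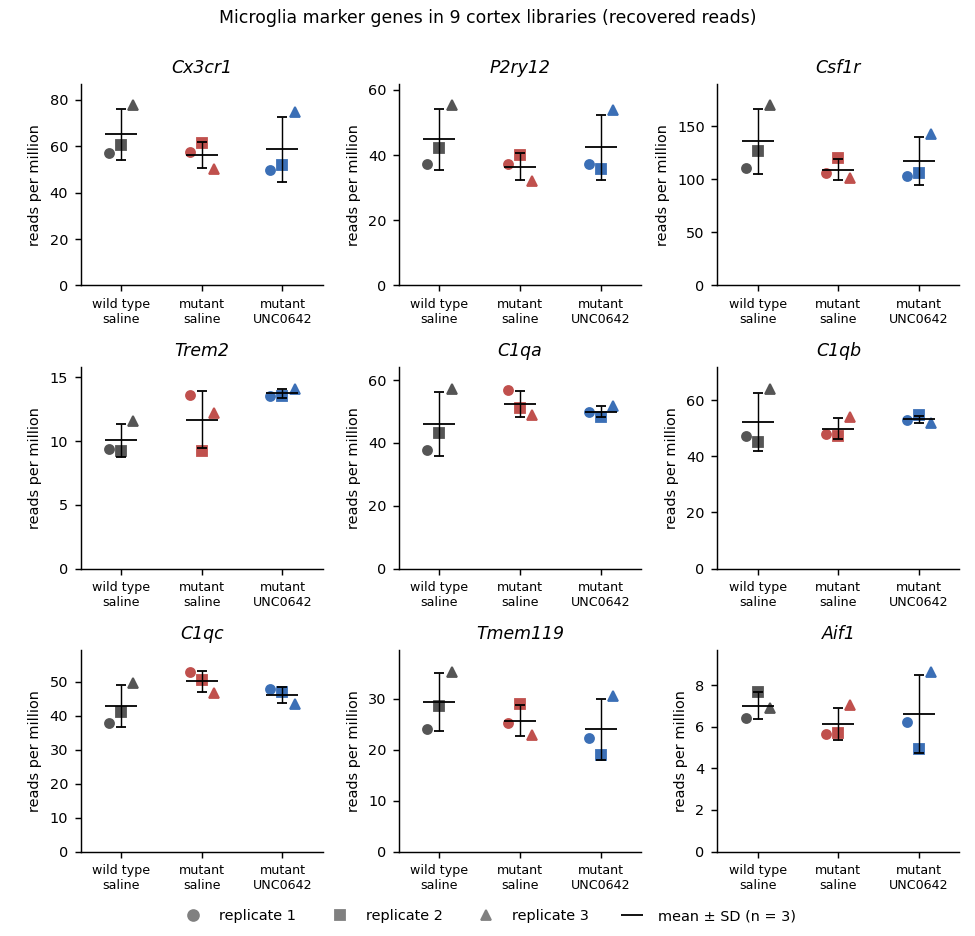
Recovered RPM (vertical axis, from 0) of the 9 members in each library, grouped along the horizontal axis as wild type saline, mutant saline and mutant UNC0642; symbols are replicates 1 to 3, and bars the mean ± SD (n = 3). Wild-type replicate 3 and UNC0642 replicate 3 are the 2 highest libraries for Cx3cr1 (77.5 and 74.7), P2ry12, Csf1r and Tmem119, UNC0642 replicate 3 is not among the 2 highest for any C1q gene, and Trem2 alone has UNC0642 libraries (13.6 to 14.1) that clear the wild-type ones (9.20 to 11.6).

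Saline mutants were compared with wild type, which asks for the effect of the genotype. No member was called in the deposited values (limma with an intensity trend on log2(value + 0.5), Benjamini-Hochberg adjusted p under 0.05 over all 14444 genes), where 0% of all genes were called and 19 had an unadjusted p under 0.05. Deposited values of Cx3cr1 averaged 60.4 ± 8.77 for wild type against 61.2 ± 6.01 for saline mutants, and recovered RPM 65.1 ± 11.0 against 56.3 ± 5.71 (SD, n = 3 for each mean). In limma-voom on the recovered reads, 12.4% of all genes were called and 0 of the 9 members. There Csf1r had a log2 difference of -0.28 (SE 0.14, limma adjusted p = 0.18), P2ry12 of -0.27 (SE 0.16, adjusted p = 0.26), Cx3cr1 of -0.19 (SE 0.15, adjusted p = 0.39) and Tmem119 of -0.17 (SE 0.17, adjusted p = 0.51). C1qc stood at 0.24 (SE 0.10, adjusted p = 0.12), C1qa at 0.22 (SE 0.12, adjusted p = 0.22), Trem2 at 0.21 (SE 0.17, adjusted p = 0.40), C1qb at -0.04 and Aif1 at -0.18. The receptors other than Trem2 thus had negative values and 2 of the C1q chains positive ones, and none passed the threshold. With the division as a term, a fit that rests on UNC0642 replicate 3, 0% of all genes and 0 members were called (709 genes at an unadjusted p under 0.05), and Cx3cr1, P2ry12, Csf1r, Tmem119 and Aif1 turned to 0.36, 0.28, 0.16, 0.41 and 0.47. The 95% intervals there were wide, from -0.03 to 0.75 for Cx3cr1 and from -0.18 to 1.13 for Aif1, so changes of these sizes could not be told from none.

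UNC0642 was compared with saline in the mutants, which asks for the effect of the inhibitor. No member was called in the deposited values, where 0% of all genes were called and 281 had an unadjusted p under 0.05. None was called in the recovered reads either, with or without the division as a term (0% of all genes in both, with 539 and 605 at an unadjusted p under 0.05). A contrast within 1 side of the division uses 5 mutant libraries, all saline mutants and UNC0642 replicates 1 and 2. It leaves out UNC0642 replicate 3, which had 30.65 RPM of Tmem119, and the division was taken from these same reads. In this contrast again 0% of all genes were called (860 at an unadjusted p under 0.05). There the largest member difference was in Tmem119, at -0.35 (95% interval -0.63 to -0.07, unadjusted p = 0.019 and adjusted p = 0.78 in limma-voom), with saline libraries of 22.9 to 29.1 RPM and UNC0642 libraries of 18.9 and 22.4. Leaving out each of the 5 in turn, Tmem119 ran from -0.46 to -0.21 at adjusted p from 0.36 to 1. With UNC0642 replicate 3 kept, in the recovered reads without the division, Tmem119 was -0.15 (95% interval -0.51 to 0.22). In the 5 libraries Trem2 stood at 0.23 (interval -0.13 to 0.59), Cx3cr1 at -0.16 (-0.36 to 0.04), P2ry12 at -0.01 (-0.24 to 0.21) and Csf1r at -0.07 (-0.24 to 0.09). The 3 C1q chains lay at -0.11, 0.10 and -0.09 for C1qa, C1qb and C1qc, with interval ends between -0.29 and 0.28, and Aif1 at -0.18 (-0.65 to 0.29). For Csf1r and the C1q genes the intervals in these 5 libraries leave out changes larger than about 0.3 on the log2 scale in either direction. With UNC0642 replicate 3 kept, in the recovered reads without the division, they reached further. There the 95% intervals were -0.23 to 0.38 for Csf1r, -0.34 to 0.17 for C1qa, -0.17 to 0.32 for C1qb and -0.35 to 0.07 for C1qc.

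UNC0642-treated mutants were compared with wild type, which asks what distance remained under treatment. Trem2 had the largest difference of the members, at 0.40 on deposited values (SE 0.15, 95% interval 0.08 to 0.72, unadjusted p = 0.017, limma adjusted p = 0.58, 0% of all genes called). In the recovered reads, where 0.0762% of all genes were called, it was 0.45 (SE 0.16, limma-voom adjusted p = 0.18), and with the division as a term, with 0.0346% called, 0.49 (SE 0.21, adjusted p = 1). Over all 28 fits of this comparison the value of Trem2 ran from 0.34 to 0.54, at adjusted p from 0.09 to 1. In the deposited values each UNC0642 library also lay above each wild-type library for Trem2, as in 5.85% of all genes. Wild type and UNC0642 replicates 2 and 3 were adjusted together, so their order was largely carried over and is not separate support. The remaining members lay between -0.27 (Tmem119) and 0.09 (C1qa) on deposited values and between -0.31 (Tmem119) and 0.13 (C1qa) in the recovered reads. The signs of 5 members turned when the division entered the model, to 0.06 for Tmem119, 0.20 for Cx3cr1, 0.27 for P2ry12, 0.09 for Csf1r and 0.29 for Aif1. Without UNC0642 replicate 3, a fit added after seeing the data, 2 members were called in the recovered reads, Tmem119 at -0.51 (SE 0.15, adjusted p = 0.028) and Cx3cr1 at -0.35 (SE 0.12, adjusted p = 0.048). In that fit all UNC0642 libraries lie on the side of the division opposite wild type, so treatment, genotype and division cannot be told apart, and 2958 genes were called in place of 11. This was the single fit of 90 with any member called.

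**Figure D2:**
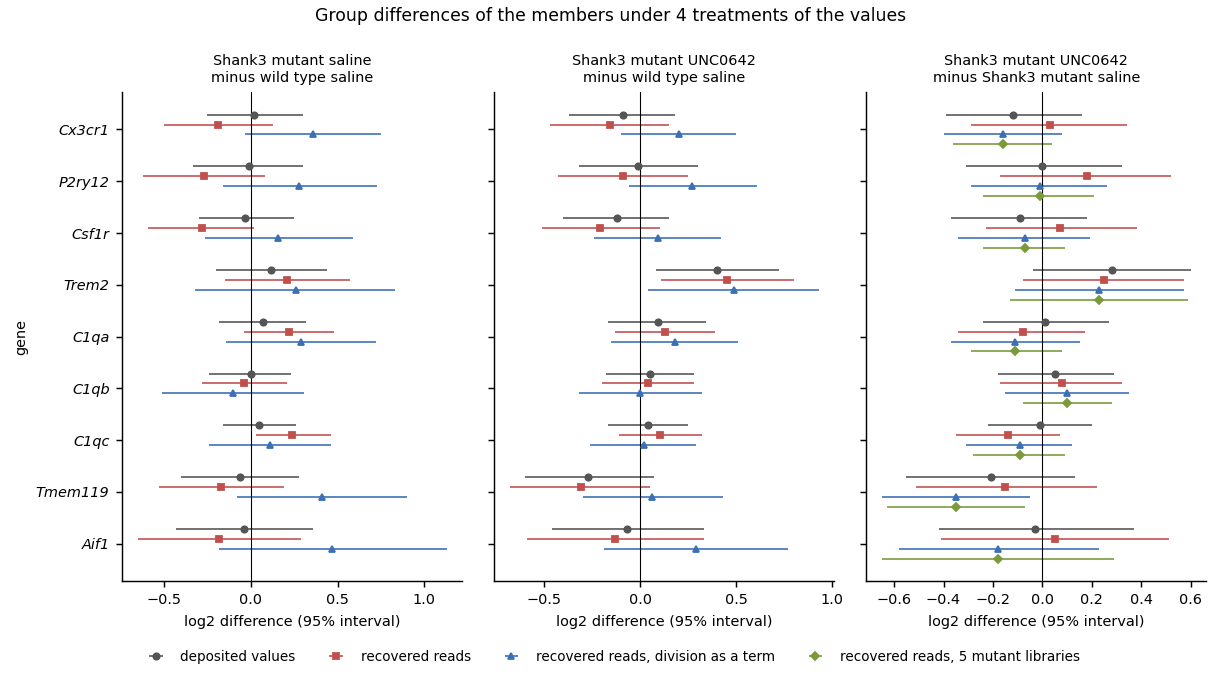
Log2 differences (horizontal axis, points with 95% intervals) of the 9 members (vertical axis) in the 3 comparisons, from the deposited values, the recovered reads, the recovered reads fitted with a term for the division and, for UNC0642 against saline, the 5 mutant libraries on 1 side. Most intervals include 0; Trem2 in treated mutants against wild type lies at 0.40, 0.45 and 0.49, and Cx3cr1 in saline mutants against wild type changes sign from -0.19 to 0.36 when the division enters.

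Across the 9 libraries, Cx3cr1, P2ry12, Csf1r and Tmem119 varied together. Their 6 pairs had Pearson's r of 0.84 to 0.96 and Spearman's rho of 0.88 to 0.95 on log2(RPM + 0.5), and 0.92 to 0.98 as deviations from group means. Leaving out the 2 libraries farthest from the median, for these pairs wild-type replicate 3 and UNC0642 replicate 3, the range was 0.68 to 0.88. Such values were not rare, since 7.78% of the genes ranked had an r above 0.8 with Cx3cr1 and 11.0% with Csf1r, and P2ry12 ranked 41 of 14171 genes by its r with Cx3cr1. The points share library and depth, and no test was made. The C1q chains held together less closely, at r = 0.89 for C1qa with C1qc (rho 0.75, and 0.58 without the 2 farthest libraries), 0.53 for C1qa with C1qb and 0.36 for C1qb with C1qc. As deviations from group means these 3 pairs lay at 0.63 to 0.88. Against the 4 other genes the chains lay at -0.01 to 0.44. Without the 2 farthest libraries, the pairs with Cx3cr1, P2ry12 and Csf1r, again without wild-type replicate 3 and UNC0642 replicate 3, lay at -0.93 to -0.12. For Tmem119 other libraries were farthest, and C1qa, C1qb and C1qc had 0.71, -0.55 and 0.11. As deviations from group means all pairs of the chains with the 4 genes lay higher, at 0.25 to 0.77, with C1qa at 0.66 to 0.77, so the sets were less separate within groups. Trem2 had r of -0.31 to 0.04 with those 4 genes and 0.43 to 0.57 with the chains, and Aif1 had 0.53 to 0.60 and -0.45 to 0.02. These 2 sets were formed after the values had been seen and are a description only.

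**Figure D3:**
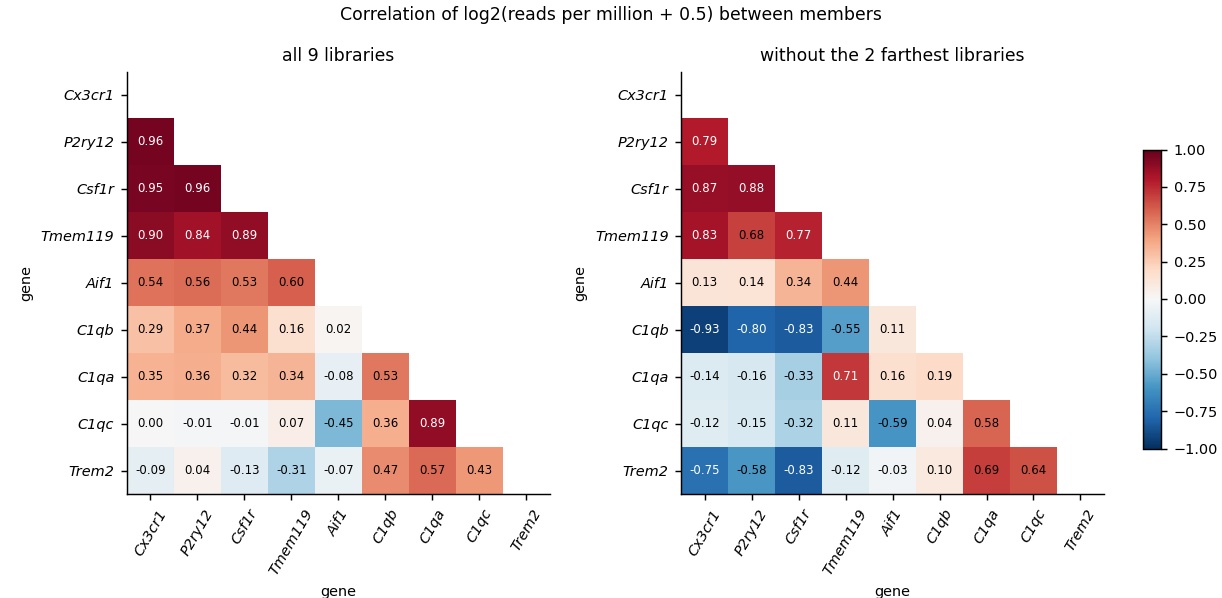
Pearson's r between members (rows and columns) over log2(RPM + 0.5), for all 9 libraries on the left and without the 2 libraries farthest from the median of 1 gene of the pair on the right. The 6 pairs among Cx3cr1, P2ry12, Csf1r and Tmem119 lie at 0.68 to 0.88 on the right, while those 4 genes with C1qb go from 0.16 to 0.44 on the left to values between -0.93 and -0.55.

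A ratio within a library does not depend on its total. For each read of Cx3cr1 there were 0.652, 0.698 and 0.712 reads of P2ry12 in wild type, 0.650, 0.653 and 0.641 in saline mutants and 0.751, 0.691 and 0.722 under UNC0642, a coefficient of variation of 5.7%. For Csf1r it was 5.2% and for Tmem119 7.9%. C1qa over Cx3cr1 varied by 16.7%, with 0.660, 0.711 and 0.739 in wild type, 0.989, 0.836 and 0.979 in saline mutants, and 1.007, 0.928 and 0.694 under UNC0642. C1qc over Cx3cr1 varied by 18.8%, with 0.665, 0.678 and 0.641, then 0.921, 0.826 and 0.932, then 0.965, 0.905 and 0.582. In both chains all wild-type ratios, and that of UNC0642 replicate 3, were below those of the saline mutants. Of the 8 other members 2 showed this separation, against 23.8% of the genes ranked with saline mutants above wild type and 21.9% with the full order of the division. The share among the members was thus near that of all genes, and the ratio was chosen after its values had been seen.

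**Figure D4:**
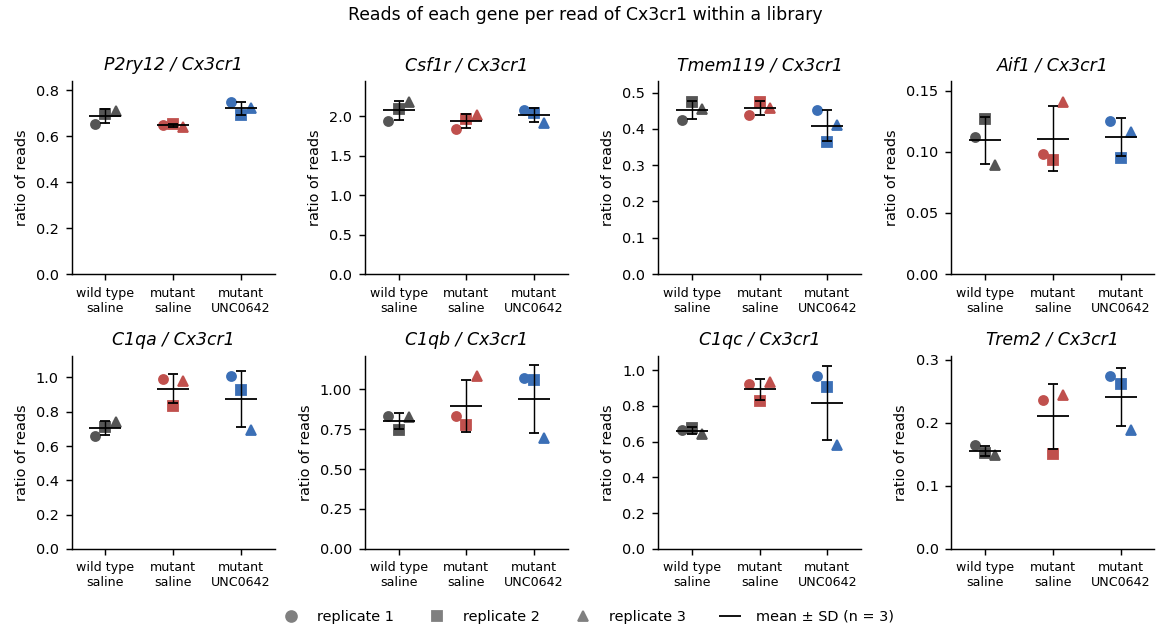
Reads of 8 members per read of Cx3cr1 (vertical axis, from 0) in each library by group, with symbols for replicates 1 to 3 and bars for the mean ± SD (n = 3). P2ry12, Csf1r and Tmem119 stay near 1 level in all groups (coefficients of variation 5.7%, 5.2% and 7.9%), while C1qa and C1qc are lowest in wild type and in UNC0642 replicate 3.

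Other features of the libraries varied as well. The 3476 genes with the least exon length (64 to 2847 bases) hold P2ry12, the C1q chains, Tmem119 and Aif1. This class deviated in median by -0.11 to -0.08 in wild type, 0.06 to 0.10 in saline mutants and 0.08, 0.08 and -0.06 under UNC0642. The 3474 longest genes ran opposite. P2ry12 and Tmem119 did not follow their class. Their 2 highest libraries were wild-type replicate 3 and UNC0642 replicate 3, where the class stood at -0.08 and -0.06. Cx3cr1 and Csf1r lay in the second and the third of the 4 length classes. Astrocyte markers (20 genes) followed the mean of the 4 genes with r = 0.96 and endothelial and mural markers (25 genes) with r = 0.94, and the summed astrocyte level was 11100 RPM in wild-type replicate 3 and 10400 in UNC0642 replicate 3, against 6500 to 8420 in the other libraries. Oligodendrocyte markers (15 genes) followed them at r = 0.45 and meningeal fibroblast markers (20 genes) at r = 0.43. In saline mutants against wild type on the recovered reads, oligodendrocyte markers had negative values in 15 of 15 genes (median -0.74, 0 called higher and 4 lower). Their summed RPM were 3240, 5380 and 5390 in wild type and 1650, 3800 and 3500 in saline mutants. Meningeal fibroblast markers had positive values in 17 of 20 (median 0.47, 1 called higher and 1 lower). Their sums were 276, 276 and 474 in wild type and 348, 370 and 305 in saline mutants. The groups thus overlapped for both lists, and the genes of a list share the same libraries. Neuron markers (15 genes) ran against all 9 members together at r = -0.97, with a sum of 14100 to 15600. The part of these features in the members' levels was not tested. Of 20 border macrophage genes listed 13 were measured, summing to 61.1 to 98.7 RPM. The most read were Stab1 at 14.85 to 32.06, Maf at 11.64 to 21.13 and Colec12 at 9.56 to 19.62, against 4.95 to 8.65 for Aif1. These RPM are not scaled for length. Exons cover 10288 bases in Stab1, 8241 in Maf and 8725 in Colec12, but 1532 in Aif1. The higher RPM of these 3 genes therefore does not mean a higher level per kilobase than Aif1. Lower levels were seen for Mrc1 at 3.84 to 10.1, Lyve1 at 0.31 to 2.01 and Pf4 at 0.50 to 1.71. The border macrophage list followed the members at r = 0.41. Of 27 blood cell markers 1 was measured, Alas2, at 1.00 to 2.57, and the others were not analysed here.

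**Figure D5:**
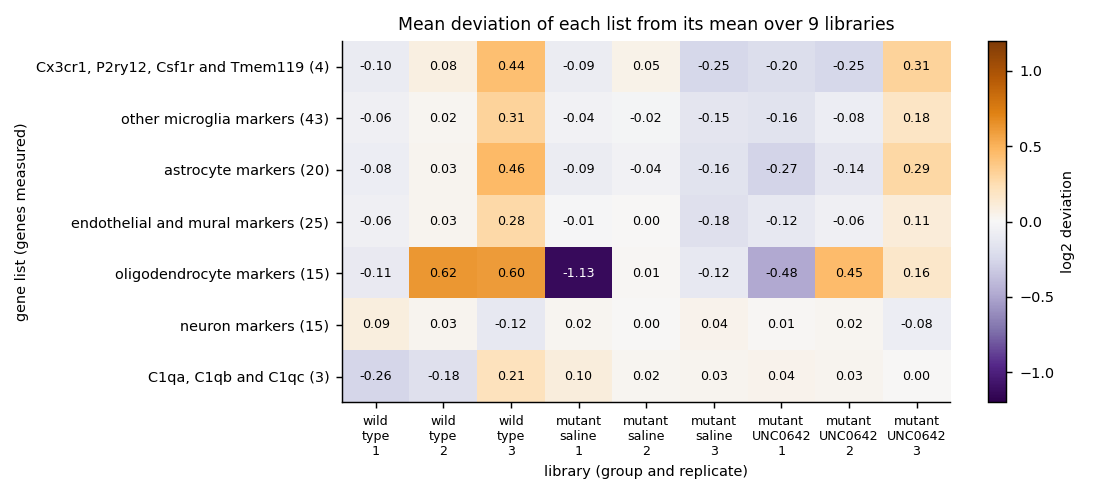
Mean deviation (color, and printed value) of each gene list from its own mean over the 9 libraries, on log2(RPM + 0.5); rows are lists with the number of genes measured, columns the libraries. Cx3cr1, P2ry12, Csf1r and Tmem119 are high in wild-type replicate 3 (0.44) and UNC0642 replicate 3 (0.31), as are astrocyte markers (0.46 and 0.29), while the C1q chains stand at 0.21 and 0.00.

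The ligands and signalling partners of the members numbered 17, and 17 were measured. Cx3cl1, which encodes fractalkine, had 785 to 1079 RPM in wild type, 932 to 990 in saline mutants and 820 to 951 under UNC0642, and was lowest in the 2 libraries in which its receptor gene Cx3cr1 was highest. Il34, a ligand of CSF1R, had 63.2 to 73.0 in wild type, 85.5 to 100.3 in saline mutants and 68.4 to 103.8 under UNC0642. Its log2 difference between saline mutants and wild type was 0.42 in the recovered reads (SE 0.13, limma-voom adjusted p = 0.054). For Il34 it was 0.01 (SE 0.10) on the deposited values and -0.03 (SE 0.18) with the division as a term. UNC0642 replicate 3, at 68.4, lay within the wild-type range of Il34. Csf1, the other ligand, stood at -0.20 in the recovered reads (adjusted p = 0.26), and Tyrobp, the adaptor of TREM2, at 0.17 there (adjusted p = 0.48). In saline mutants against wild type 0 of the 17 were called higher and 2 lower in the recovered reads, among them Tgfbr1, which encodes a receptor for TGF-beta (-0.72, SE 0.17, limma-voom adjusted p = 0.024). The median of the 17 was -0.09, against 0.003 for all genes. With the division as a term 0 of the 17 were called in any comparison, and the median was 0.15.

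Of 45 further microglia markers 43 were measured, and their mean followed Cx3cr1, P2ry12, Csf1r and Tmem119 at r = 0.97. In the recovered reads 1 was called higher in saline mutants than in wild type and 3 lower: Coro1a, an actin-binding protein (0.63, SE 0.15, limma-voom adjusted p = 0.022), and Itgam, the integrin chain of complement receptor 3 (-0.63, SE 0.19, adjusted p = 0.049), Golm1 (-0.55, SE 0.13, adjusted p = 0.023) and Dock8 (-0.85, SE 0.25, adjusted p = 0.043). The other comparisons called 0 of the 43, and the median for saline mutants against wild type was -0.13 in the recovered reads and 0.14 with the division as a term, where 0 were called. Among complement genes beyond C1q, 24 of 30 were measured, with 4 lower in saline mutants and 0 higher in the recovered reads. Beside Itgam these were Csmd2, which encodes a complement regulator (-0.44, SE 0.10, adjusted p = 0.023), Cd93 (-0.80, SE 0.21, adjusted p = 0.033) and the engulfment receptor gene Megf10 (-0.95, SE 0.23, adjusted p = 0.025). Clu, the most read complement gene, stood at 0.11 (adjusted p = 0.47). Of 32 genes of activated microglia 19 were measured, and 0 were called in any of these fits, with the cathepsin genes Ctsb at 0.21 (adjusted p = 0.17) and Ctsd at 0.12 (adjusted p = 0.26) in the recovered reads. Of 22 interferon response genes 21 were measured, and Ifih1 alone was called (-0.79, SE 0.24, adjusted p = 0.047). Among border macrophage genes the antigen presentation genes H2-Eb1 (1.56, SE 0.42, adjusted p = 0.033) and Cd74 (0.88, SE 0.27, adjusted p = 0.046) were higher in saline mutants, both at low levels, with 0.56 to 1.28 and 1.85 to 3.47 RPM in wild type. All these calls come from the fit without the division, which called 12.4% of all genes. With the division as a term none was called at adjusted p from 0.91 to 1, but the values did not move alike. H2-Eb1 (1.55), Cd74 (1.17), Ifih1 (-0.80) and Cd93 (-0.63) kept most of their size, with SEs of 0.36 to 0.65. Coro1a (0.02), Megf10 (0.00), Tgfbr1 (-0.05), Itgam (-0.06), Golm1 (-0.10), Csmd2 (-0.16) and Dock8 (-0.18) lost most of theirs. Leaving out wild-type replicate 2, saline mutant replicate 1 or saline mutant replicate 3 brought its 1794 called genes down to 14, 18 and 25, and leaving out wild-type replicate 3 or saline mutant replicate 2 to 403 and 484.

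The genes most like the mean of the 9 members over the recovered reads, among 14163 genes, were Nbeal2, Ryr1 and Id4 (r = 0.97 each) and Sdc4 and Rnf182 (r = 0.96 each), and on the deposited values Nbeal2, Timp3, Id4, Gjb6 and Ryr1 (r = 0.97 each). Id4 had 40.3, 50.9 and 69.9 RPM in wild type, 49.3, 52.0 and 43.0 in saline mutants, and 43.8, 41.4 and 72.3 under UNC0642. Its 2 highest libraries, UNC0642 replicate 3 and wild-type replicate 3, were also the 2 highest for Cx3cr1, P2ry12 and Csf1r. The other microglia markers had a median r of 0.65 with that mean, and all genes 0.10. For the mean of the C1q chains alone the nearest gene was Id3 (r = 0.98), with 21.4, 24.4 and 39.7 in wild type, 36.9, 29.5 and 31.1 in saline mutants, and 32.3, 32.2 and 29.9 under UNC0642. Here the other microglia markers had a median r of 0.33.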

How the data were processed

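For 14444 genes and 9 libraries the authors deposited a signal that is never negative, which they call CPM; 9 of 9 single-library files equalled the matrix. Per the labels' protocols, total RNA was extracted with Trizol and depleted of ribosomal RNA, and the libraries keep strand. Per the submitters' processing notes cutadapt, TopHat2, HTSeq and mm9 were used; for versions, strand setting and normalization the sources used here give nothing.

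The values were not plain CPM. None was 0, they summed to 975390 to 1028773 per library, and 1 of 255 divisions of the libraries gave equal set means (next best, a largest difference of 0.87 on the log2 scale). Whole reads were recovered as the 1 shift per gene that makes all 9 values whole after removal of a prior of 3.0 reads, with 100% of values whole within 0.02 reads (largest distance 0.00065). The priors had 3 possible combinations with a whole mean, of which the smallest was taken; this sets the depth but not the relative levels. This step was tested on simulated data and was set up with an earlier description of these files known.

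Groups were compared in R 4.3.3 by limma 3.58.1 (intensity trend) on log2(deposited value + 0.5), in 1 model of all 9 libraries without further terms, and p-values were adjusted by Benjamini-Hochberg over all genes; the scale understates changes of low genes. Alternatives were limma-voom with TMM factors (own implementation) on the recovered reads, alone, with the division as a term and for 5 mutant libraries, other pseudocounts, scaling, a value filter, 2 groups only, a replicate block and leaving out each library. On the recovered reads, the fits without each library and with a block, a principal transcript length and the profiles of 2 gene sets were added after seeing the data. Exon lengths came from GENCODE M21. Promoters were cut to 250 bases after a longer window had been seen. Python 3.11.15 (matplotlib 3.10.9, scipy 1.17.1, pandas 2.3.3, numpy 2.4.6) did the rest.

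The members and the 13 other gene lists were chosen with earlier results of these data known. All members are named, of each other list up to 4 genes of highest mean value and those called, and the 5 genes most like the members; further genes of the lists (Csf1, Tyrobp, Lyve1 and Pf4) were named for their role, and called genes of the lists for cells other than macrophages are not named here. Some genes of the lists are not reported here.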

Additional observations from a re-analysis of the deposited data

How the results depend on the processing

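Members were called in 1 of the 90 fits; that one, without UNC0642 replicate 3, is given in the report (Tmem119 -0.51 and Cx3cr1 -0.35). The values of members that were not called changed sign against the deposited values in 17 of 135, 12 of 135 and 10 of 135 cases under other treatments of the deposited values, and in 16 of 108, 55 of 162 and 11 of 108 on the recovered reads, for saline mutants against wild type, UNC0642 against saline and UNC0642 against wild type. The members' median log2 difference, 0.00, -0.01 and -0.01, moved with the division as a term to 0.28 for saline mutants and 0.18 for UNC0642 against wild type, and the cause was not tested. Leaving out each library it ran from -0.05 to 0.13, -0.13 to 0.02 and -0.15 to 0.13 on deposited values, and from -0.22 to -0.04, -0.09 to 0.11 and -0.28 to 0.05 on recovered reads. Genes called for saline mutants against wild type numbered 0 on deposited values (5 with these 2 groups only), 1794 on recovered reads and, there, 1758, 14 and 403 without wild-type replicates 1, 2 and 3, 18, 484 and 25 without saline mutant replicates 1, 2 and 3, and 1963, 1592 and 3619 without UNC0642 replicates 1, 2 and 3, and for UNC0642 against wild type 0 (0 to 4 leaving out each library), 11 on recovered reads (28 without wild-type replicate 3, 2958 without UNC0642 replicate 3 and 1 to 4 without any other library) and, with the division, 5. Within the 5 mutant libraries it was 0 to 2. The replicate block called 0, 0 and 0 genes on deposited values (34, 265 and 1155 at an unadjusted p under 0.05) and 2441, 0 and 50 on recovered reads. Whether the numbers pair the samples was not settled. Same-numbered deviations correlated at -0.19 to 0.31 on deposited values and at -0.15 to 0.32 on recovered reads. The highest value of both ranges was that of wild type with UNC0642 in replicate 3. Depth limits Aif1 and Trem2 most, at 71 to 131 and 113 to 219 reads.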
